A study of Homo sapiens with 4 samples.

Results

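FOXC1 binding was examined at 5 genes of the chromosome bands 8q24 and 6p22, which are recurrently gained in bladder cancer. MYC and PVT1 formed the 8q24 group, and E2F3, CDKAL1 and SOX4 formed the 6p22 group. A peak was assigned to a gene when its summit, the position of the highest pileup, lay in the gene body or within 100 kb of it. By this rule 35 of 22405 peaks in replicate 1 and 63 of 41789 peaks in replicate 2 belonged to the 5 genes. The 8q24 group held 21 peaks in replicate 1 and 34 in replicate 2, and the 6p22 group held 14 and 29.

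The peaks came from chromatin immunoprecipitation and sequencing (ChIP-seq) in J82 cells, an established human bladder cancer line kept in DMEM with fetal bovine serum and given no treatment. The study made 2 biological replicates of the FOXC1 immunoprecipitation (antibody D8A6) and 2 input libraries, to which no antibody was added. The peaks of each replicate were listed separately, and the inputs entered here through the background of those lists. All libraries came from 1 cell line, so the lists hold no contrast between conditions, and the replicates give the error of each value.

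FOXC1 is a forkhead transcription factor. MYC encodes a basic helix-loop-helix leucine zipper transcription factor that drives growth and proliferation, and PVT1 is a long non-coding RNA gene beside it whose locus is known to contain enhancers. E2F3 encodes a transcription factor held in check by the retinoblastoma protein, and its gain with the neighboring genes is a known event in bladder cancer. CDKAL1 encodes an enzyme that modifies transfer RNA, and SOX4 encodes a transcription factor with a high mobility group box.

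Short stretches of hg19 from 6p22 regions listed in both replicates show which letters lay near FOXC1 summits. They were taken around the summit of the replicate with the higher fold enrichment, which was replicate 2 in each. Regions without a match near that summit are not shown. Capitals mark the matched motif, and each stretch reads 5′ to 3′ on the strand given. A forkhead consensus was counted where GTAAACA lay within 50 bp of a summit on either strand, or where one of the variants did, which were GTAAATA, the form ATAAACA and also the form ATAAATA. An AP-1 site was counted where TGACTCA was found in the same window, or else its central variant TGAGTCA. The extended element has CCAA before a looser forkhead-like core, and a match to it can overlap a forkhead consensus. The strongest 6p22 region, in a CDKAL1 intron, held the extended element on the minus strand at chr6:20543385-20543414, and the region upstream of CDKAL1 held it on the plus strand at chr6:20528783-20528812. The region in the SOX4 3′ UTR held GTAAACA on the minus strand at chr6:21598044-21598070, and the region upstream of SOX4 held it on the minus strand at chr6:21588969-21588995. A weaker CDKAL1 intronic region held ATAAACA on the minus strand at chr6:21109752-21109778, and another held an AP-1 site on the plus strand at chr6:21022743-21022769.
CDKAL1 intron, strongest region: ggcaattatCCAAGAGAAATAaagacttgt
Upstream of CDKAL1: aggacttgtCCAAAGACAACAggaggttga
SOX4 3′ UTR: agattgaagtGTAAACAtggagaaatt
Upstream of SOX4: ccttcctactGTAAACAtgtttcaggc
CDKAL1 intron, weaker region: cacatgaagcATAAACAtctcttttac
CDKAL1 intron, AP-1 site: caagagagctTGACTCAtgcttagact

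The genes lie on the plus strand and are placed by GENCODE version 44 on hg19. MYC spans chr8:128747680-128755197 and PVT1 spans chr8:128806772-129199347, so that their windows join into 1 interval of 652 kb. E2F3 spans chr6:20402110-20493945, CDKAL1 spans chr6:20534688-21232635 and SOX4 spans chr6:21593982-21598850. The windows of E2F3 and CDKAL1 overlap, a gap of 161 kb separates them from that of SOX4, and together the 6p22 windows cover 1235 kb. Peaks in overlapping windows were counted for both genes but once in the group.

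To ask how densely FOXC1 was placed at these genes, peaks were counted per Mb of window. The 8q24 group held 32.2 peaks per Mb in replicate 1 (21 peaks, 95% exact Poisson interval 19.9 to 49.3 per Mb) and 52.2 per Mb in replicate 2 (34 peaks, 36.1 to 72.9). The 6p22 group held 11.3 peaks per Mb in replicate 1 (14 peaks, 6.20 to 19.0 per Mb) and 23.5 per Mb in replicate 2 (29 peaks, 15.7 to 33.7). The lists as a whole held 7.24 and 13.5 peaks per Mb. The long arm of chromosome 8 carried 11.0 and 17.9 per Mb, and the short arm of chromosome 6 carried 11.5 and 22.2, so the 8q24 windows were denser than their own arm in both replicates while the 6p22 windows were close to theirs. These intervals, and those below, cover counting error only. The counts and densities include every listed peak, also those with a deposited q above 0.05. At 8q24 these were 5 of 21 peaks in replicate 1 and 5 of 34 in replicate 2. At 6p22 they were 4 of 14 and 2 of 29, and over the lists 7004 of 22405 and 5967 of 41789. PVT1 accounted for most of the 8q24 peaks, with 14 summits in its body in replicate 1 and 31 in replicate 2.

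The genes differed in how their density compared with that of other genes of the same type. The PVT1 window held 28.7 peaks per Mb in replicate 1 and 55.7 in replicate 2, and 5.18% and 3.21% of 18702 lncRNA genes had at least that density. The MYC window held 43.4 per Mb in replicate 1, reached by 0.665% of 20163 protein-coding genes, but 19.3 per Mb in replicate 2, reached by 40.5%. The rank of MYC therefore depended on the replicate, with 9 peaks in the shorter list and 4 in the longer list. A q above 0.05 was held by 4 of the 9 replicate 1 peaks and by 1 of the 4 replicate 2 peaks. The E2F3 window held 17.1 and 27.4 per Mb, reached by 16.8% and 23.4% of protein-coding genes. The CDKAL1 window held 12.3 and 22.3 per Mb, reached by 29.7% and 34.0%, and the SOX4 window held 14.6 and 34.2 per Mb, reached by 21.3% and 13.8%. These 3 genes were above the protein-coding median of 7.28 and 15.5 per Mb in both replicates, and many other genes were at least as dense.

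Overlap between the replicates was then used to separate peaks listed in both from peaks listed once. The rule sets no q threshold, so it also joins weak peaks. The 6p22 region chr6:21264449-21264999, for example, had a −log10 q of 0.65 in replicate 1 and 1.41 in replicate 2. In the 8q24 group 12 of 21 replicate 1 peaks (57.1%) and 11 of 34 replicate 2 peaks (32.4%) overlapped a peak of the other replicate by at least 1 bp. In the 6p22 group 10 of 14 (71.4%) and 9 of 29 (31.0%) did. Over the whole lists the share was 59.6% in replicate 1 and 31.7% in replicate 2, so the share at both loci was close to the background. Overlapping peaks merged into 11 shared regions at 8q24 and 9 at 6p22, of 13238 in all. Each of the 5 gene windows held at least 1 shared region, with 10 for PVT1, 7 for CDKAL1, 4 for E2F3, 3 for MYC and 2 for SOX4. Over all genes, 62.3% of protein-coding and 55.4% of lncRNA genes had a shared region in the window, and 20% and 9.19% had one in the body. The MYC body held none, the E2F3 and SOX4 bodies held 1 each, the CDKAL1 body held 4 and the PVT1 body held 10. Body length ran from 4.87 kb for SOX4 to 698 kb for CDKAL1, and the shares over all genes were not matched for length.

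**Figure D1:**
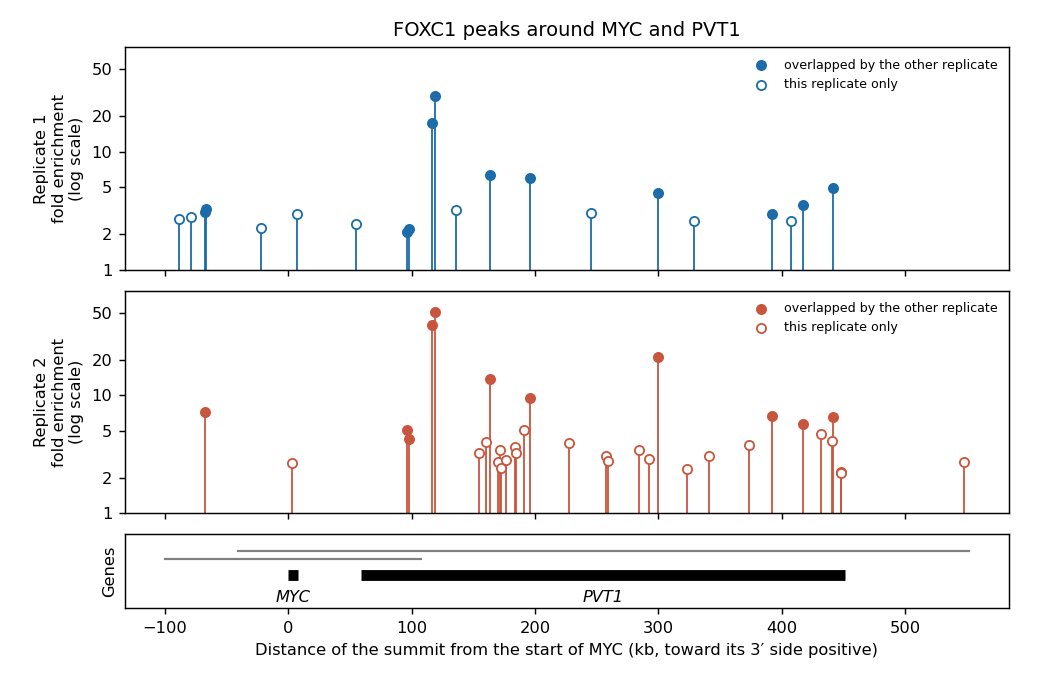
Fold enrichment over local background (log axis) of each FOXC1 peak in the 8q24 windows against the distance of its summit from the start of MYC in kb, with replicate 1 above and replicate 2 below. Filled points overlap a peak of the other replicate, open points do not, black bars are the gene bodies and gray lines are the windows. The highest points in both replicates, at 29.7 and 51.4, lie 119 kb past the MYC start, inside PVT1, and the points around MYC itself stay at or below 7.19.

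By the median over shared regions, fold enrichment was higher in the 8q24 group than in the 6p22 group. Fold enrichment, the deposited ratio of immunoprecipitated to background pileup with 1 added to both, had a median over the 11 regions of 4.49 in replicate 1 and 7.19 in replicate 2. The 9 regions of the 6p22 group had medians of 2.56 and 4.39, and the 13238 shared regions had 3.79 and 6.71. Thus the 8q24 medians lay above those of all shared regions in both replicates and the 6p22 medians lay below. A −log10 q of at least 5 in both replicates was reached by 7 of 11 regions at 8q24 and by 2 of 9 at 6p22, beside 50.8% of all shared regions. Over the regions reaching that threshold the order turned, with a median of the mean fold enrichment of 10.0 at 8q24 and 18.8 at 6p22. These groups are small and were not tested against each other.

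The peaks in the MYC body were weak, and those around it differed between replicates. Its body held 1 peak in each replicate, and these did not overlap. The replicate 1 peak, chr8:128754531-128754790, lay in the 3′ UTR with a fold enrichment of 2.98, a −log10 q of 2.36 and a forkhead consensus near its summit. The replicate 2 peak, chr8:128750898-128751441, lay 281 bp from a start site of the overlapping gene CASC11 with a fold enrichment of 2.68 and a −log10 q of 0.875. In the whole MYC window the fold enrichment ran from 2.11 to 3.29 over 9 replicate 1 peaks, none of which reached a −log10 q of 5, and from 2.68 to 7.19 over 4 replicate 2 peaks, 3 of which did. Over the lists 30.8% and 43.3% of peaks reached it. The median was 2.73 in replicate 1 and 4.68 in replicate 2, below and above the list medians of 3.02 and 3.63. The strongest was a shared region at chr8:128680177-128681393, upstream of MYC in an intron of a gene without a symbol. Its replicate 2 peak was enriched 7.19-fold with a forkhead consensus near the summit. Replicate 1 listed 2 peaks under it, one of 3.07 with its summit 3 bp from that of replicate 2 and also with a forkhead consensus, and a slightly stronger one of 3.29 with its summit 855 bp away.

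PVT1 carried the strongest FOXC1 binding of the 8q24 group, in a pair of neighboring regions. The stronger region, chr8:128865938-128866974, was enriched 29.7-fold in replicate 1 and 51.4-fold in replicate 2, a mean of 40.5 ± 15.4 (SD, n = 2). Its summits lay 3 bp apart and 230 bp upstream of the start of a PVT1 transcript, 59.6 kb into the gene, and a forkhead consensus lay near both. It ranked 140 of 13238 shared regions by the worse of its ranks in the replicates. The other region, chr8:128863740-128864827, was enriched 17.6-fold in replicate 1 and 39.3-fold in replicate 2, a mean of 28.4 ± 15.3 (SD, n = 2). It ranked 352, lay in a PVT1 exon with summits 1 bp apart, and had both a forkhead consensus and an AP-1 site near its summit in each replicate. The pair lay 117 and 119 kb from the start of MYC, just past the edge of the MYC window.

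Whole reads over each summit were worked out from the fold enrichment and the −log10 p of the peak. The stronger PVT1 region had 179 reads in replicate 1 (95% interval 154 to 207) and 283 in replicate 2 (251 to 318). The other had 111 reads (91.3 to 133.7) and 216 (188 to 247). The median peak had 18 reads in replicate 1 and 23 in replicate 2, so both regions were well above the usual depth of a summit. Reads above background summed to 610 over the 8q24 peaks of replicate 1 and to 1191 in replicate 2. This PVT1 pair gave 45.8% and 37.2% of those sums.

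Of the other PVT1 regions, 4 had a −log10 q above 10 in both replicates, and these lay in introns. The region chr8:128911007-128911912 had 6.35 in replicate 1 and 13.7 in replicate 2, and chr8:128943787-128944352 had 6.05 and 9.44, and both carried a forkhead consensus near each summit. The region chr8:129188888-129189624 had 4.95 and 6.52 without one. The replicates differed most at chr8:129046946-129047879, with 4.49 in replicate 1 and 21.1 in replicate 2, which is 2.23 on the log2 scale against a median of 0.75 over all shared regions. That region had 60 reads in replicate 1 and 123 in replicate 2, and its local background was 2.54 times the list median in replicate 1 but 1.01 times in replicate 2. It had an AP-1 site near both summits.

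The remaining PVT1 regions were weaker. The region chr8:129139937-129140489 had fold enrichments of 3.004 and 6.68 in replicates 1 and 2, and chr8:129165235-129165702, near the microRNA gene MIR1208, had 3.54 and 5.67. The regions chr8:128843724-128844445 and chr8:128845246-128845654 had 2.11 and 2.21 in replicate 1 and 5.11 and 4.25 in replicate 2. These last 2 lay in the windows of both MYC and PVT1, and each had a −log10 q under 1 in replicate 1. PVT1 peaks thus spanned the gene in both replicates, but strength was uneven along it.

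**Figure D2:**
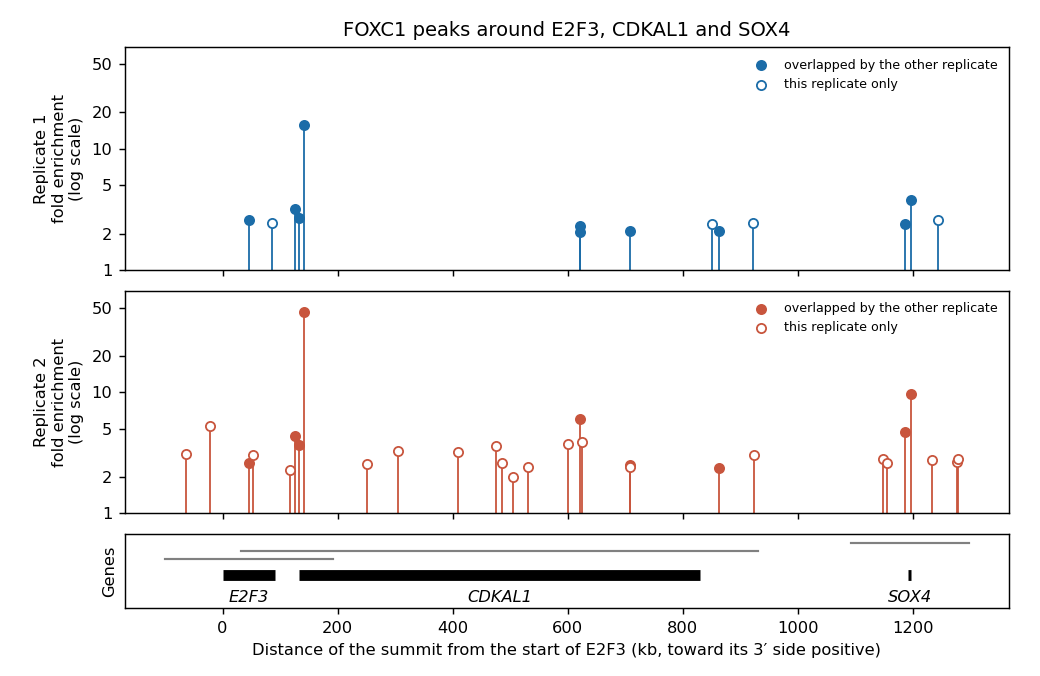
Fold enrichment over local background (log axis) of each FOXC1 peak in the 6p22 windows against the distance of its summit from the start of E2F3 in kb, with replicate 1 above and replicate 2 below. Filled points overlap a peak of the other replicate, open points do not, black bars are the gene bodies and gray lines are the windows. One CDKAL1 point, at 15.9 and 46.0, stands above the rest, and the next highest is in SOX4 at 3.76 and 9.76.

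The 6p22 group was dominated by 1 region in CDKAL1. The region chr6:20542916-20543823 lay in an intron, 8.70 kb into CDKAL1 and 141 kb from the start of E2F3, and so counted for both windows. It was enriched 15.9-fold in replicate 1 and 46.0-fold in replicate 2, a mean of 30.9 ± 21.3 (SD, n = 2), and it ranked 137 of 13238 shared regions. Its summits were 1 bp apart. The extended element printed above lay near both, and no forkhead consensus was found within 50 bp. It gave 52.3% of all reads above background in the 6p22 peaks of replicate 1 and 36.7% in replicate 2.

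Reads and fold enrichment ordered the strongest CDKAL1 and PVT1 regions differently. The CDKAL1 region had 229 reads in replicate 1 (95% interval 200 to 261) and 393 in replicate 2 (355 to 434), more in each replicate than the stronger PVT1 region with 179 and 283. Its fold enrichment of 15.9 in replicate 1 was nevertheless lower than 29.7 at PVT1, and in replicate 2 it was 46.0 against 51.4. Local background at the CDKAL1 region was 2.72 times the list median in replicate 1 and 1.57 times in replicate 2, against 1.02 and 0.93 at the PVT1 region. Because fold enrichment divides by that background, the order depended on which quantity was read.

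E2F3 had weak FOXC1 peaks inside its body. It held 2 in each replicate, or 21.8 per Mb, with an exact Poisson interval of 2.64 to 78.7 per Mb. That interval includes the 7.24 and 13.5 per Mb of the lists in replicates 1 and 2. It also includes the 11.5 and 22.2 per Mb of the chromosome arm that holds E2F3. So few peaks cannot show whether the E2F3 body was denser than the lists or the arm. Fold enrichment there was at most 2.56 in replicate 1 and 3.06 in replicate 2. The only shared region there, chr6:20448008-20448515 in an intron, was enriched 2.56-fold in replicate 1 and 2.62-fold in replicate 2 and ranked 12688 of 13238. Over both replicates, the strongest peak of the E2F3 window outside the CDKAL1 body was listed in replicate 2 alone. That peak, chr6:20380172-20380549, lay upstream of E2F3 between genes, with a fold enrichment of 5.23, a −log10 q of 17.2, 51 reads and a forkhead consensus. The other 3 shared regions of the E2F3 window were nearer to CDKAL1 than to E2F3.

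The start of CDKAL1 was flanked by modest regions. One at chr6:20534936-20535490 lay 581 bp downstream of a CDKAL1 start site and was enriched 2.70-fold in replicate 1 and 3.70-fold in replicate 2. Another at chr6:20528545-20529035, 5897 bp upstream of CDKAL1, had 3.19 and 4.39 and carried the extended element near both summits. Further into the gene, chr6:21109655-21110069 had 2.11 and 2.52, with a forkhead consensus near its replicate 2 summit but not near that of replicate 1. The region chr6:21022488-21023485 had 6.01 in replicate 2 and 2 peaks in replicate 1, of 2.30 with the summit 508 bp away and of 2.04 with the summit 40 bp away, the latter with an AP-1 site like that of replicate 2. A region past the 3′ end, chr6:21264449-21264999, had 2.10 and 2.39. Of these 5, none reached a −log10 q of 5 in replicate 1, and 3 did so in replicate 2.

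SOX4 had a shared region in its 3′ UTR. The region chr6:21597828-21598304, 4.10 kb from the SOX4 start, was enriched 3.76-fold in replicate 1 and 9.76-fold in replicate 2, a mean of 6.76 ± 4.24 (SD, n = 2). It was, with the strong CDKAL1 region, 1 of the 2 regions of the 6p22 group with a −log10 q of at least 5 in both replicates. It had 44 reads in replicate 1 (95% interval 31.97 to 59.1) and 100 in replicate 2 (81.4 to 122). GTAAACA lay 3 bp from its replicate 2 summit, while no forkhead consensus lay within 50 bp of its replicate 1 summit, 48 bp away. A second region, chr6:21588753-21589165, lay 5011 bp upstream of SOX4 in an intron of a gene without a symbol, with fold enrichments of 2.39 and 4.67 and a forkhead consensus near both summits.

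**Figure D3:**
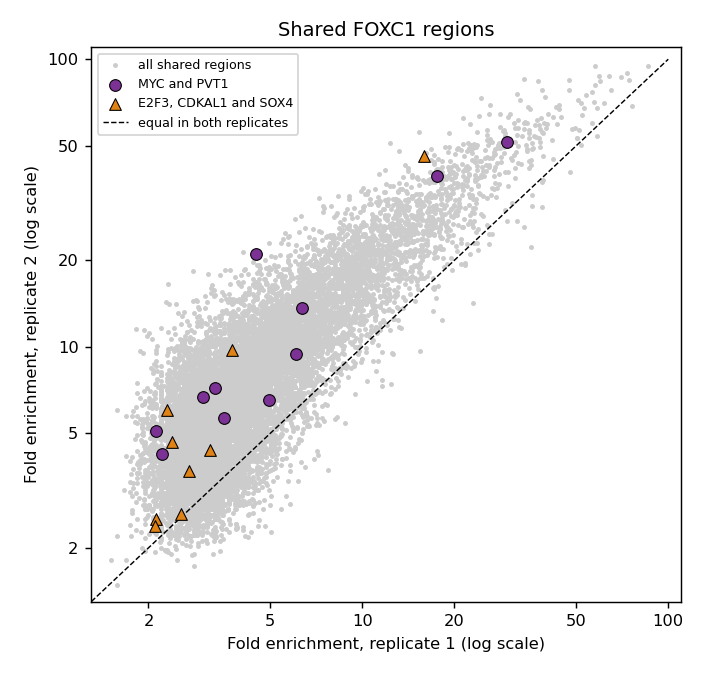
Fold enrichment of the 13238 shared FOXC1 regions in replicate 2 against replicate 1 (both axes log), with the 11 regions of MYC and PVT1 as circles and the 9 of E2F3, CDKAL1 and SOX4 as triangles. The dashed line marks equal values, and all 20 member regions lie above it. A pair of PVT1 circles and 1 CDKAL1 triangle lie in the upper right, among the strongest regions.

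Replicate 2 gave the higher fold enrichment in 11 of 11 shared regions at 8q24 and in 9 of 9 at 6p22, beside 91.9% of all shared regions, so this direction was that of the lists in general. The log2 ratio of replicate 2 to replicate 1 ran from 0.40 to 2.23 at 8q24, with a median of 1.10, and from 0.03 to 1.53 at 6p22, with a median of 0.46. Over all shared regions the median was 0.75 with an SD of 0.52. The nearest summits of the replicates within a shared region were a median of 28 bp apart at 8q24 and 48 bp at 6p22, and 28 bp over all shared regions.

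Introns held most member peaks, in windows largely taken up by the long PVT1 and CDKAL1 bodies. Of the 21 replicate 1 peaks at 8q24, 14 lay in introns and 2 within 2 kb of a transcript start, and of the 34 replicate 2 peaks 25 and 7 did. At 6p22, 9 of 14 replicate 1 peaks and 21 of 29 replicate 2 peaks were intronic, with 1 at a promoter in each replicate. Over the lists 48.1% of replicate 1 summits and 47.3% of replicate 2 summits lay in introns, and 18.5% of replicate 1 summits and 21.5% of replicate 2 summits were within 2 kb of a start. Among shared regions 1 at each locus was at a promoter, beside 20% of all shared regions, one for a PVT1 transcript and one for CDKAL1. No shared region lay within 2 kb of a MYC, E2F3 or SOX4 start.

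Member peaks listed in a single replicate were mostly weak. The same shares over all single-replicate peaks of the lists were not taken, so this is not read as particular to these loci. At 8q24, the 9 such peaks of replicate 1 had fold enrichments of 2.26 to 3.20 and none reached a −log10 q of 5, and the 23 of replicate 2 had 2.18 to 5.09 with 4 reaching it. Those 4 were in PVT1 introns, and the strongest, chr8:128938510-128939027, had a fold enrichment of 5.09 and a −log10 q of 9.64. At 6p22, the 4 of replicate 1 had 2.40 to 2.56 with none reaching it, and the 20 of replicate 2 had 1.999 to 5.23 with 5 reaching it. Besides the peak upstream of E2F3, these were 4 intronic CDKAL1 peaks with fold enrichments of 3.29 to 3.87. Counting all member peaks, a −log10 q of at least 5 was reached by 7 and 15 at 8q24 and by 2 and 11 at 6p22 in replicates 1 and 2, and the background was 30.8% and 43.3% of the lists. A fold enrichment of at least 5 was reached by 4 and 11 at 8q24 and by 1 and 4 at 6p22, beside 18% and 27.5%.

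Peaks just inside and just outside the windows had overlapping values. The outermost peaks within the 8q24 window had fold enrichments of 2.73 and 4.95 in replicate 1 and 7.19 and 2.75 in replicate 2, and the nearest peaks outside had 2.46 and 2.30, and 3.40 and 6.34. At 6p22 the outermost had 2.56 and 2.56 in replicate 1 and 3.11 and 2.81 in replicate 2, and the nearest outside had 2.39 and 2.33, and 3.44 and 3.73.

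Forkhead motifs were present at member summits at about the rate of the lists. In replicate 1, 7 of 21 summits at 8q24 (33.3%, exact binomial 95% interval 14.6 to 57.0) and 4 of 14 at 6p22 (28.6%, 8.39 to 58.1) had a forkhead consensus within 50 bp, beside 32.2% of all summits. In replicate 2, 10 of 34 at 8q24 (29.4%, 15.1 to 47.5) and 8 of 29 at 6p22 (27.6%, 12.7 to 47.2) did, beside 38.2%. These intervals include the share of the lists. AP-1 sites lay at 4 of 21 and 5 of 34 summits at 8q24 and at 1 of 14 and 2 of 29 at 6p22, beside 10.2% and 11.6% of the lists in replicates 1 and 2. The extended element lay at 0 and 1 summits at 8q24, at 2 in each replicate at 6p22, and at 4.4% and 3.77% of the lists. A match is a description of the letters near a summit and not a measured FOXC1 site.

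In the strongest peak of each replicate in the shared regions, the forkhead consensus was found in 5 of 11 at 8q24 in each replicate, and in 2 and 3 of 9 at 6p22 in replicates 1 and 2. Over all shared regions it was found in 44.1% and 48.7%. At 8q24 it lay near both summits of the PVT1 pair and of the next pair of PVT1 regions by rank of replicate 1 fold enrichment. An AP-1 site was found in 4 and 2 shared regions at 8q24 and in 0 and 1 at 6p22, beside 15.5% and 16.7%. At 8q24 the AP-1 sites lay in PVT1, and at 6p22 the AP-1 site lay in the CDKAL1 intron shown above.

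Because these genes are known for gains in bladder cancer, the local background at their peaks was examined. MACS2 takes this background from the input library around each peak, with a genome-wide minimum, so it is the measure in the lists that bears on how much DNA a region contributed to the input. At 6p22 the median background was 1.81 times that of all peaks in replicate 1 and 1.86 times in replicate 2, a mean of 1.84 ± 0.0348 (SD, n = 2). At 8q24 it was 1.08 and 1.14 times, a mean of 1.11 ± 0.0378 (SD, n = 2). The difference between the loci was larger than the spread between replicates. The paper does not say whether each replicate had its own input as control, so the 2 backgrounds may not be independent. None of the 6p22 peaks were at the genome-wide minimum, and at 8q24 0 of 21 and 1 of 34 were, beside 23.6% and 31.9% of the lists.

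The raised background was not confined to the genes. Peaks on the short arm of chromosome 6 had a median of 1.46 times the list median in replicate 1 and 1.51 in replicate 2, against 0.91 and 0.93 on its long arm. In 2 Mb bins, the 10 bins from 8 to 28 Mb ran from 1.58 to 1.91 in replicate 1 and from 1.62 to 1.89 in replicate 2. Bins from 32 Mb on ran from 0.84 to 1.09 and from 0.87 to 1.36. Their lower ends, 0.84 and 0.87, are the genome-wide minimum, so lower levels could not be seen. On the long arm 42.7% and 41.1% of peaks were at that minimum. The bin of 20 to 22 Mb, which holds E2F3, CDKAL1 and SOX4, stood at 1.63 and 1.76, and 1.40% of 1216 bins and 1.11% of 1350 bins were at least as high. E2F3, CDKAL1 and SOX4 thus sat in a stretch of similar values on both sides. The bounds of these stretches were chosen after the values were seen.

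MYC and PVT1 peaks were close to the rest of their arm by this measure. The long arm of chromosome 8 had medians of 1.15 and 1.24 in replicates 1 and 2, above the 1.08 and 1.14 of the 8q24 peaks. The short arm of chromosome 8 had 1.04 and 0.93, with 29.4% and 43.6% of its peaks at the genome-wide minimum. Bins from 48 to 134 Mb ran from 1.07 to 1.32 in replicate 1 and from 1.05 to 1.70 in replicate 2, with 1.23 and 1.25 in the bin of 128 to 130 Mb that holds both genes. That level or more was reached by 10.4% and 13.6% of all bins. The bin was thus slightly above the medians of the arm in both replicates, while the peaks of the windows were slightly below them. DNA copy number was not measured here, and its part in these values was not tested.

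**Figure D4:**
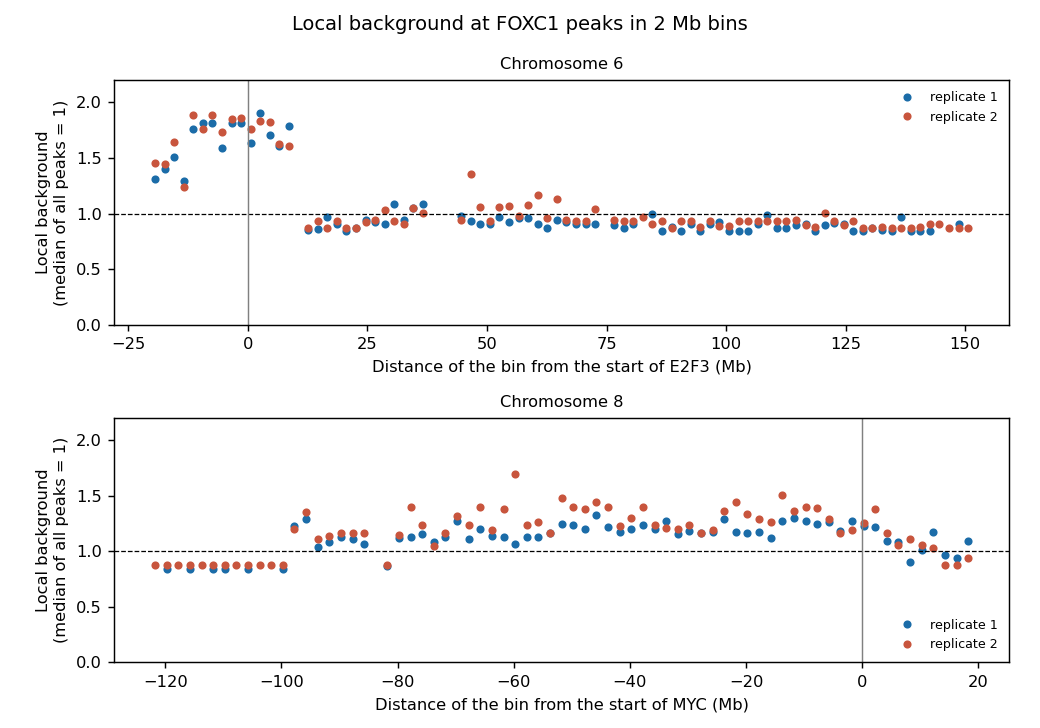
Median local background at FOXC1 peaks in 2 Mb bins holding at least 5 peaks, as a multiple of the median of all peaks in the list, against the distance in Mb from the start of E2F3 on chromosome 6 (upper) and of MYC on chromosome 8 (lower). Blue points are replicate 1, red points are replicate 2, the dashed line is the list median and the vertical line is the gene start. Around E2F3 the bins sit between 1.58 and 1.91 in a broad stretch, and around MYC they sit near 1.23 and 1.25, within the range of the rest of the long arm.

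Other genes of the same pathways gave a frame for the 5 members. Of 25 genes of the MYC and RB/E2F network, such as MAX, RB1 and E2F1, 17 had a shared region in the body or within 100 kb and 3 had one in the body. Of 12 genes of other recurrent gains in bladder cancer, among them MYCL, which is also in the network list, 11 had a shared region within 100 kb and 6 in the body. For all 20163 protein-coding genes these shares were 62.3% and 20%. The network genes were thus near the background for windows and below it for bodies, while the gained genes were above it for both. These lists are small, were not matched for gene length and were not tested. Median local background could be given for 12 network genes in replicate 1, from 0.84 to 1.83, and for 20 in replicate 2, from 0.87 to 1.86. For the gained genes it ran from 0.88 to 1.63 over 8 genes and from 0.87 to 1.57 over 10. E2F1 had 1.83 and 1.51, the level closest to the 1.81 of the 6p22 peaks in replicate 1. E2F5 had 1.86 in replicate 2 from only 3 peaks, and its 1 peak in replicate 1 gave no median.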

How the data were processed

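FOXC1 ChIP-seq was analysed from the peak list of each ChIP replicate in J82 cells. The submitters' processing notes name bwa, MACS2 2.2.7.1 and bedtools with the hg19 build; the study aligned reads with bwa and used MACS2 for peak calling, with the inputs as control. The filter behind the lists is not given in the sources used here. The study obtained its reproducible peaks with the IDR tool, and that step was not repeated here. The authors deposited, for each peak, a score, a fold enrichment (a ratio at the summit), a −log10 p and a −log10 q.

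Peaks on the 22 autosomes, X and Y were kept. Whole reads and the local background were solved for each peak from its deposited −log10 p and fold enrichment (residual of at most 0.001), which succeeded in 100% of peaks. The pileup of replicate 2 carried a scale of 0.904. The list medians of background were 4.95 and 4.29 reads, and the minima were 4.16 and 3.75. The absolute read totals are not held in the lists, so precision is given through reads per summit. A shared region merges overlapping peaks (at least 1 bp) with at least 1 of each replicate, is represented by the strongest peak of each, and is ranked by the worse of its ranks. Genes came from GENCODE version 44 on GRCh37, the assembly of hg19; the study's version was not used here. Computation used Python 3.11.15, numpy 2.4.6, pandas 2.3.3 and scipy 1.17.1, and was tested on simulated peaks.

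The samples were grouped by their titles. With 1 cell line and no contrast, no test was run: values are given per replicate, as mean ± SD over 2 replicates, or beside the same value over all peaks or genes. The text names the 5 members, genes hosting or nearest to member summits, all shared regions and, of peaks in 1 replicate, those with −log10 q of at least 5 and the strongest per window, some of these as a range; E2F1 and E2F5 were named after their values were seen. The members and lists were chosen with earlier results of these data known. Windows, thresholds, overlap, motif width and the background reference were varied. Inputs, reads and other assays were not analysed here.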

Additional observations from a re-analysis of the deposited data

How the results depend on the processing

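Values below are means of the replicates unless stated. A −log10 q of at least 5 cut the 8q24 peaks from 27.5 to 11 and a fold enrichment of at least 5 to 7.5, and the 6p22 peaks from 21.5 to 6.5 and 2.5. Gene bodies alone held 12.5 peaks at 6p22, and 250 kb windows 37.5. Leaving out a replicate gave 14 to 29 peaks at 6p22 and 21 to 34 at 8q24. Without replicate 2 the 6p22 count was thus 14, by the construction of the mean. Shared regions numbered 7 of 11 at 8q24 and 2 of 9 at 6p22 under the q threshold, and 15 at 6p22 with 250 kb windows. The fold enrichment of shared regions was 5.73 at 8q24, 11.5 as a mean over regions and 10.0 under the q threshold; at 6p22 it was 3.53, 6.61 and 18.8, so that the order of the loci turned under the q threshold. The forkhead share was 31.4% at 8q24, and 23.7% within 25 bp, 38.2% within 100 bp and 20.7% for GTAAACA alone; at 6p22 it was 28.1%, 19.3%, 49.1% and 15.9%, beside 23.7%, 47.7% and 14.4% of all summits under those 3 settings. The local background of 8q24, 1.11 times the list median, fell below 1 against other peaks of the same chromosome (0.968) and, in an alternative chosen after seeing the data, of the same arm (0.933). That of 6p22, 1.84, was 1.59 as a mean over peaks, 1.74 with 250 kb windows, 1.71 against the chromosome, 2.17 under the q threshold and 1.24 against the arm, above 1 in each. Of 58 alternatives, 31 moved a value by less than its spread or 1.5 times, 25 by more, and 2 turned its direction. Leaving out 1 of 2 replicates only returns the value of the other, so its outcome is largely set by construction. Without those alternatives the counts were 16, 24 and 2. No paired analysis was possible because no result comes from a test between groups. Depth limits the weak peaks: at a median of 18 and 23 reads per summit, absence of a peak from 1 list does not show absence of binding.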
